A study of Mus musculus with 8 samples.

Results

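The 10 genes described here carry, restrain or respond to the growth hormone signal in the liver: the receptors Ghr and Prlr, the kinase Jak2, the transcription factors Stat5a and Stat5b, the feedback inhibitors Socs2 and Cish, and the transcriptional regulators Bcl6, Cux2 and Trim24. They were taken by symbol from the deposited table of liver RNA-seq values, and 10 of 10 were found among its 14317 mouse genes. Livers came from adult female mice on a Western diet (WD) that is rich in fat and sugar, and each of the 8 libraries is the whole liver RNA of a single mouse. The 4 Con-Veh mice carried an empty vehicle (Veh) pellet and the 4 Con-DHT mice a 10 mm pellet of dihydrotestosterone (DHT), an androgen that cannot be turned into an estrogen, for 8.5 weeks. The labels list all 8 mice as WT, and the 2 groups share the sex and the diet. The study asked what androgen excess does to the liver of female mice on this diet, and the comparison of the 2 groups gives the part of that question that lies in these 10 transcripts.

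Growth hormone released by the pituitary binds GHR on hepatocytes and activates the kinase JAK2, which phosphorylates STAT5A and STAT5B, and these enter the nucleus and switch on genes such as Igf1, Socs2 and Cish. SOCS2 and CISH then bind the receptor complex and dampen the signal. In rodents the hormone is released in separated pulses in males and more evenly in females, and this pattern, read by STAT5B together with the repressors BCL6 and CUX2, sets many liver genes to a male or a female level. Between the sexes, Bcl6 is higher in male than in female liver and Cux2 higher in female than in male liver. Prlr, the prolactin receptor, is a female-biased liver gene. TRIM24 is a coregulator that restrains nuclear receptor signalling in hepatocytes.

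Values are normalised read counts, that is, reads on a gene divided by a size factor of its library, and 1 read was worth between 0.870 and 1.10 of them. Libraries held between 13123962 and 17815944 reads on genes. The tissue label was checked on 7 hepatocyte markers, all of which were present, and Alb, the albumin gene, was between 539803 and 1275381 in every library. In bulk liver, fewer cells of a type and less RNA per cell cannot be told apart. Unless another test is named, p-values come from limma on log2(value + 1) and are adjusted by Benjamini-Hochberg over 14312 genes, and a gene was called at an adjusted p of at most 0.05. By this rule 7.21% of all tested genes were called, 4.6% as higher and 2.61% as lower in Con-DHT.

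STAT5 binds palindromes written TTCNNNGAA, and the start regions of 3 of the pathway's own genes hold them. RefSeq (GRCm38.p6) gave windows of 300 bases, 250 before an annotated start and 50 from it on, for 9 of the 10 genes and 17 starts in all, with none for Socs2. Both strands were searched, and since the motif is its own reverse complement each match counts once. It was found in 4 of the 17 windows, against 8.30% of all 32851 windows in the table. By gene it was found in 3 of the 9, against 9.55% of all 27025 genes with a window. The 4 windows are printed 5′ to 3′ on the strand of the gene because they are the ones that hold the motif, and the capitals mark the matches.
Cish, chr9:107296409-107296708, plus strand: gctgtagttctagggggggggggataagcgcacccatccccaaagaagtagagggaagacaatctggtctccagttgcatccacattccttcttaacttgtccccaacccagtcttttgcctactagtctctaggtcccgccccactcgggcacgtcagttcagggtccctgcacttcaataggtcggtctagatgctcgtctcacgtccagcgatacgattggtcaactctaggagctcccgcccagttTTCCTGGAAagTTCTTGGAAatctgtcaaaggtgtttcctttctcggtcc
Bcl6, first start, chr16:23988803-23989102, minus strand: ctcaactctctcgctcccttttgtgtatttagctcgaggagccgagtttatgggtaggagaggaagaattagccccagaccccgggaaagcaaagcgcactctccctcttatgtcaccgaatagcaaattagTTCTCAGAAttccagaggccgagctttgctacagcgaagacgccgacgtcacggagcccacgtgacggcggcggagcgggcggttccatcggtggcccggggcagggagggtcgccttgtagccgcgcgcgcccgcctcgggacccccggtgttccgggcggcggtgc
Bcl6, second start, chr16:23981234-23981533, minus strand: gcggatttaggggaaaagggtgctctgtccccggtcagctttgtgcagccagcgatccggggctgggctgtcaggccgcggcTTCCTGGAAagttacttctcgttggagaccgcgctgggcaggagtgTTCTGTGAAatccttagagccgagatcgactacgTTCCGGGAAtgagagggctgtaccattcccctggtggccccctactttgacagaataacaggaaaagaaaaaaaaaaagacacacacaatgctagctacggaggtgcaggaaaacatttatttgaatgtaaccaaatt
Prlr, second start, chr15:10223656-10223955, plus strand: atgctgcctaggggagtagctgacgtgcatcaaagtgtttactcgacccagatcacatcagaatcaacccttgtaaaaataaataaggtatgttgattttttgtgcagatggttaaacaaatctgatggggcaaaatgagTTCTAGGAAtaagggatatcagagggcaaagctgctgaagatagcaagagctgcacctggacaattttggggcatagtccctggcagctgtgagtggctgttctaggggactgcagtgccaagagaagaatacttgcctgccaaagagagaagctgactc
In the Cish window TTCCTGGAA begins at the annotated start itself (position 0) and TTCTTGGAA 11 bases further on. The second start of Bcl6 holds TTCCTGGAA, TTCTGTGAA and TTCCGGGAA, which begin at -168, -122 and -88, and its first start holds TTCTCAGAA at -118. The second of the 3 Prlr starts holds TTCTAGGAA at -110, and the other Prlr windows have no match. The palindrome ATCGAT, a sequence that CUX proteins can bind, was searched as well and occurred in 1 of the 17 windows, the second start of Cux2 (chr5:122047776-122048075, minus strand), against 0.925% of all windows. A match describes letters in a window and shows no binding, and which start these livers used was not tested.

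Among the 10 genes, Prlr was lower and Bcl6 higher in Con-DHT liver, and the other 8 did not pass the test. The 2 called genes are to be read against the 7.21% of all genes that were called. Groups did not overlap for 2 of the 10 genes, Prlr and Cux2, both lower in Con-DHT, against 15.1% of all tested genes in either direction and 6.62% in this one. The log2 fold change was negative for 9 of the 10 genes, with a median of -0.19 beside -0.0081 over all tested genes. With libraries scaled by the spike-ins it was negative for 5 of 10, with a median of 0.011 beside 0.19 over all tested genes. The median of the 10 genes was thus below that of all tested genes under both scalings. Ghr, Jak2, Stat5a and Socs2 were the genes whose sign turned, and Prlr, Stat5b, Cish, Bcl6, Cux2 and Trim24 kept theirs under every scaling tried. The plot of values by library shows where the groups part.

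**Figure D1:**
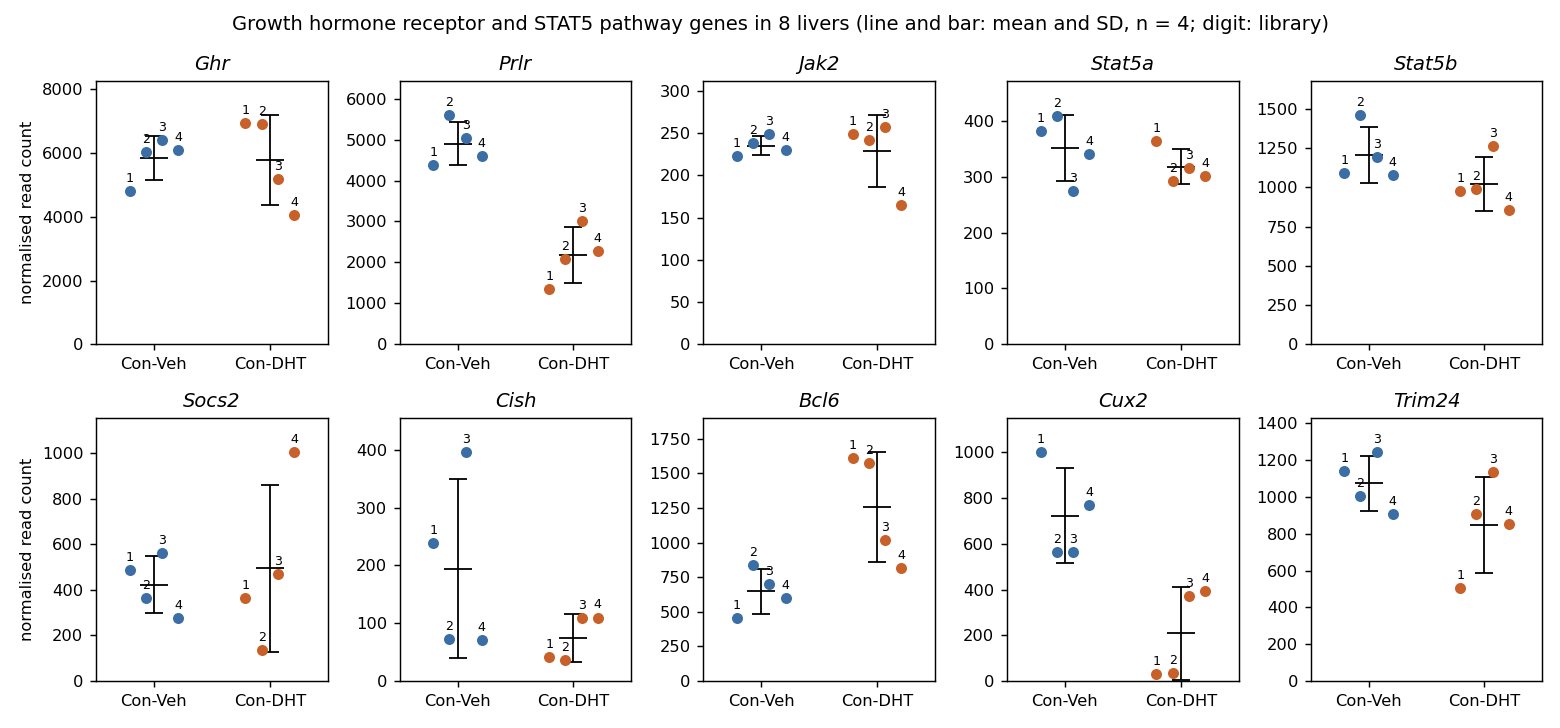
Normalised read counts (y axis, from 0) of the 10 genes in the 4 Con-Veh and 4 Con-DHT libraries, with digits giving the library and the line and bar the mean and SD. Only Prlr and Cux2 show no overlap between the groups, and in Con-DHT the Cux2 values split into 30.4 and 33.9 against 374 and 392.

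Ghr, the growth hormone receptor, was the most abundant of the 10 transcripts. It measured 4825, 6037, 6403 and 6091 in Con-Veh 1 to 4 and 6939, 6922, 5191 and 4062 in Con-DHT 1 to 4. The Con-DHT values enclosed the Con-Veh values on both sides, with libraries 1 and 2 high and library 4 low. The log2 fold change was -0.04 (SE 0.17, 95% interval -0.42 to 0.34, adjusted p = 0.92).

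Prlr measured 4384, 5595, 5033 and 4607 in Con-Veh and 1354, 2072, 3017 and 2278 in Con-DHT. Every Con-DHT library was below every Con-Veh library, and Con-DHT 1 was the lowest. The Con-DHT mean was 44.5% of the Con-Veh mean, and the log2 fold change was -1.22 (SE 0.20, 95% interval -1.67 to -0.77, adjusted p = 0.0060). It was called under all 13 other settings tried and with any single library left out, where its adjusted p reached at most 0.021. The spread between mice was larger in Con-DHT, with a coefficient of variation of 31.4% beside 10.9% in Con-Veh.

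The proportion of the receptors was compared within each library. The log2 ratio of Prlr to Ghr was -0.14, -0.11, -0.35 and -0.40 in Con-Veh and -2.36, -1.74, -0.78 and -0.83 in Con-DHT. The ranges did not overlap, and the Con-DHT libraries fell into a pair with the lower ratios (1 and 2) and a pair with the higher ones (3 and 4). The difference of the means was -1.18 (exact two-sided permutation test, n = 4 per group, p = 0.029, adjusted p = 0.057 over 4 ratios). With 4 against 4 libraries 0.029 is the smallest p that 70 arrangements can give, and the adjusted value missed the threshold.

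Jak2, the kinase that both receptors use, was nearly flat. It measured 223, 238, 249 and 229.8 in Con-Veh and 249, 242, 257 and 165 in Con-DHT, so that Con-DHT 4 alone was below all the others. The log2 fold change was -0.06 (SE 0.14, 95% interval -0.37 to 0.25, adjusted p = 0.84).

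Stat5a measured 383, 409, 275 and 342 in Con-Veh and 364, 293, 315 and 302 in Con-DHT. The groups overlapped over most of their range, with a log2 fold change of -0.13 (SE 0.13, 95% interval -0.42 to 0.15, adjusted p = 0.59). Stat5b, which carries most of the sex-dependent growth hormone response of the liver, measured 1093, 1458, 1195 and 1077 in Con-Veh and 977, 992, 1260 and 858 in Con-DHT. Con-DHT 1, 2 and 4 lay below every Con-Veh library and Con-DHT 3 lay among them, and the log2 fold change of -0.24 (SE 0.13, 95% interval -0.53 to 0.05, adjusted p = 0.30) did not pass the test. Within a library the log2 ratio of Stat5a to Stat5b was -1.51, -1.83, -2.12 and -1.65 in Con-Veh and -1.42, -1.75, -1.995 and -1.502 in Con-DHT. Its difference of 0.11 was smaller than the SD in either group (exact two-sided permutation test, n = 4 per group, p = 0.54). The 2 genes are close relatives, so reads from their most similar exons may have been lost or assigned to the wrong one by counting of uniquely mapped reads. Stat5a also shares 72 exon bases with its neighbour Stat3 (GENCODE M21). Other members share exon bases too. Cish shares 479 with Gm17041 and 261 with Gm17040, Prlr 203 with Gm21973, and Bcl6 21 with Gm37419. The part of these overlaps in the values was not tested.

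The feedback inhibitors varied more between mice of the same group than the receptors or the kinase did. Socs2 measured 486, 366, 563 and 278 in Con-Veh and 366, 135, 469 and 1004 in Con-DHT, a range of 7.41-fold among the DHT-treated mice. Both the highest and the lowest of the 8 values were in Con-DHT. The log2 fold change was -0.06 with a wide interval (SE 0.49, 95% interval -1.15 to 1.03, adjusted p = 0.96), which spans large changes either way, and its sign turned with the scaling.

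Cish measured 239, 72.4, 396 and 71.4 in Con-Veh and 41.2, 35.8, 109.2 and 109.8 in Con-DHT. Con-Veh 1 and 3 were above all the other libraries, and Con-DHT 1 and 2 were below them. The Con-DHT mean was 38.0% of the Con-Veh mean, but the log2 fold change of -1.18 (SE 0.59, 95% interval -2.49 to 0.12, adjusted p = 0.26) did not pass the test. The values rest on 37 to 107 reads in Con-DHT and 75 to 397 in Con-Veh, and the highest Con-Veh value was 5.55 times the lowest.

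Socs2 and Cish put the mice of each group in the same order by their values. In Con-Veh both were highest in library 3, then 1, 2 and 4, and in Con-DHT both were highest in library 4, then 3, 1 and 2. This was the 1 pair of the 45 among the 10 genes with the same order in both groups, and it was noticed after all 45 were compared. Trim24 had the same order as both in Con-Veh but not in Con-DHT. Of 14311 other tested genes, 0.147% matched the order of Socs2 in both groups. The match rests on near ties of Cish, 72.4 against 71.4 in Con-Veh 2 and 4 and 109.2 against 109.8 in Con-DHT 3 and 4, which lie within counting error. Their ratio was less constant than their order. The log2 ratio of Socs2 to Cish was 1.02, 2.32, 0.51 and 1.94 in Con-Veh and 3.12, 1.89, 2.09 and 3.18 in Con-DHT, with overlapping groups and a difference of 1.12 (exact two-sided permutation test, n = 4 per group, p = 0.14, adjusted p = 0.19 over 4 ratios).

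**Figure D2:**
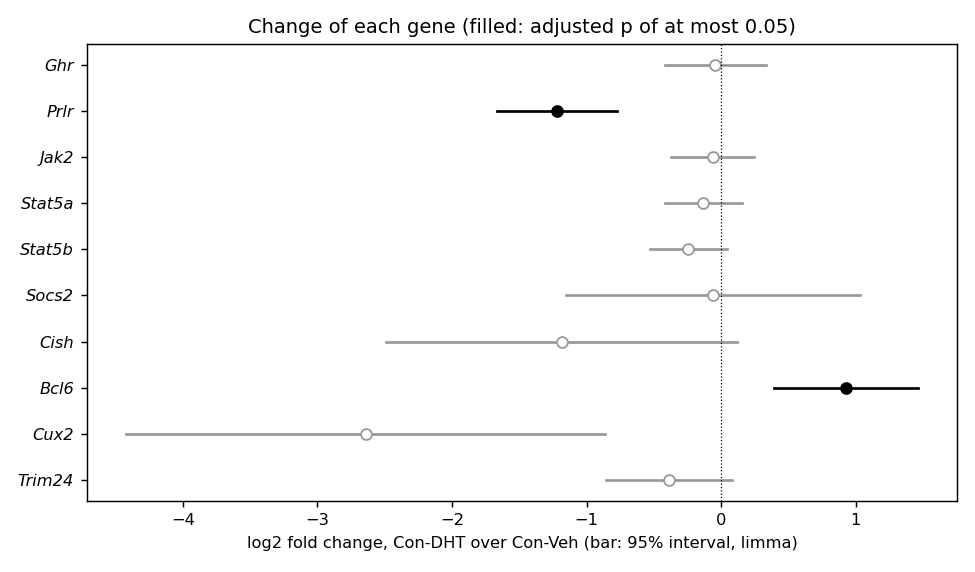
Log2 fold change of Con-DHT over Con-Veh (x axis) for each of the 10 genes (y axis), with bars for the 95% interval from limma and filled points for an adjusted p of at most 0.05. The intervals of Prlr (-1.67 to -0.77) and Bcl6 (0.39 to 1.46) exclude 0 and are filled, and that of Cux2 (-4.42 to -0.86) excludes 0 without an adjusted p under the threshold.

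Bcl6 measured 454, 839.6, 701 and 601 in Con-Veh and 1608, 1577, 1017 and 817 in Con-DHT. Con-DHT 1, 2 and 3 were above every Con-Veh library, and Con-DHT 4 was just below Con-Veh 2. The Con-DHT mean was 1.93 times the Con-Veh mean, with a log2 fold change of 0.93 (SE 0.24, 95% interval 0.39 to 1.46, adjusted p = 0.045). This call was near the threshold. It was lost in 6 of 8 fits with a single library removed, all but those without Con-Veh 2 and without Con-DHT 4, with adjusted p-values up to 0.12 while the log2 fold change stayed between 0.77 and 1.11.

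Cux2 measured 1001, 563, 562 and 768 in Con-Veh and 30.4, 33.9, 374 and 392 in Con-DHT. Every Con-DHT library was below every Con-Veh library, and within Con-DHT the values formed 2 pairs, the lowest of the high pair being 11.03 times the highest of the low pair. The low pair rests on 31 and 35 reads. The log2 fold change was the largest of the 10 genes at -2.64, but because of that split its error was large too (SE 0.80, 95% interval -4.42 to -0.86, adjusted p = 0.078), and Cux2 was not called. Leaving out either library of the high pair, Con-DHT 3 or Con-DHT 4, brought the adjusted p to 0.041 and 0.040. Leaving out a library of the low pair, Con-DHT 1 or Con-DHT 2, gave log2 fold changes of -2.03 and -2.08 with adjusted p-values of 0.17 for both, and leaving out a Con-Veh library gave 0.11 to 0.16. The arithmetic mean of Con-DHT was 28.7% of that of Con-Veh, and edgeR on recovered reads, which follows these means, gave a log2 fold change of -1.81 (adjusted p = 0.14).

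The 2 repressors were then set against each other in each mouse. In Con-DHT the order of the libraries by Bcl6 was exactly the reverse of their order by Cux2, which 4.63% of tested genes show relative to Bcl6, though the values within each pair of libraries, 1 and 2 or 3 and 4, were close for Cux2. In Con-Veh the highest Cux2 value and the lowest Bcl6 value were both in library 1. The log2 ratio of Bcl6 to Cux2 was -1.14, 0.58, 0.32 and -0.35 in Con-Veh and 5.68, 5.50, 1.44 and 1.06 in Con-DHT. Bcl6 was thus 0.454 to 1.49 times as high as Cux2 in normalised read count in Con-Veh and 2.08 to 51.2 times as high in Con-DHT, without overlap. The difference of the log2 means was 3.57 (exact two-sided permutation test, n = 4 per group, p = 0.029, the smallest these arrangements can give, adjusted p = 0.057 over 4 ratios).

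**Figure D3:**
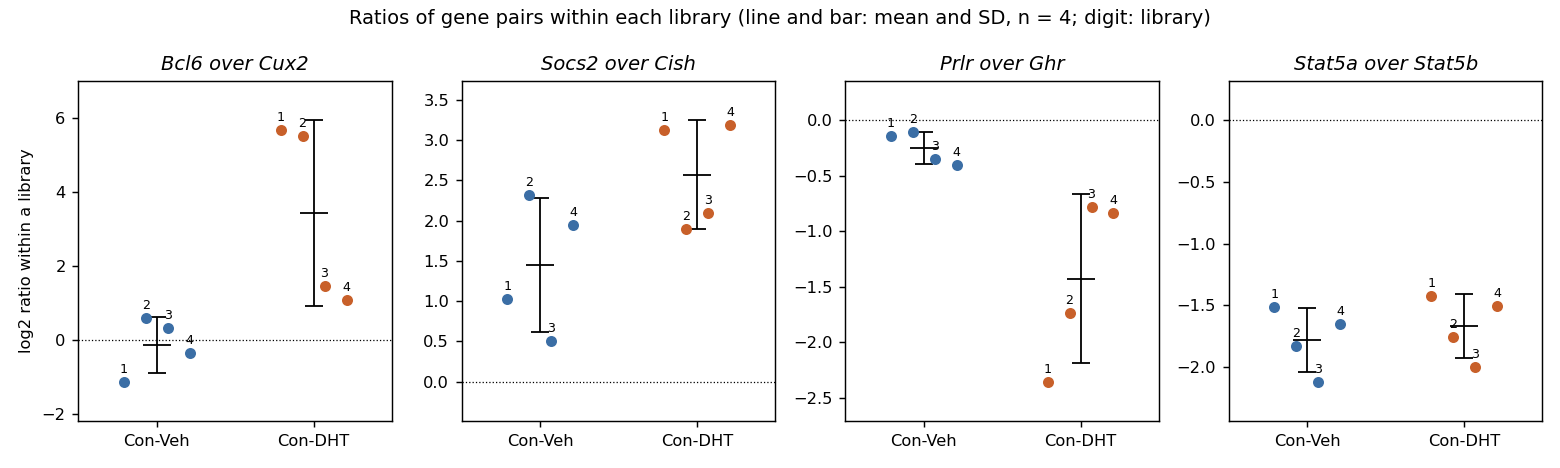
Log2 ratio of gene pairs within each library (y axis) for the 4 Con-Veh and 4 Con-DHT libraries, with digits giving the library and the line and bar the mean and SD. Bcl6 over Cux2 (3.57 higher) and Prlr over Ghr (1.18 lower) show no overlap between the groups, and in both Con-DHT 1 and 2 lie farthest from Con-Veh, while the other ratios overlap.

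The Con-DHT libraries 1 and 2 were apart from 3 and 4 in 6 of the 10 genes, a split looked for after the values were seen, beside 32.9% of all tested genes. Con-DHT 1 and 2 had the higher Ghr and Bcl6 and the lower Prlr, Socs2, Cish and Cux2 values, and Con-DHT 3 and 4 the reverse. Ghr followed the same library order as Bcl6 in Con-DHT, and in Con-Veh it did not. Depth split the libraries the same way, with 14476751 and 15205299 reads on genes in Con-DHT 1 and 2 and 14275075 and 13123962 in Con-DHT 3 and 4. The share of reads on the spike-ins did so too, at 2.33% and 2.22% against 2.67% and 2.75%, and the part of either in these values was not tested.

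Trim24 measured 1142, 1006, 1244 and 906 in Con-Veh and 504, 907, 1134 and 853 in Con-DHT. Con-DHT 1 stood alone at the bottom and the other libraries overlapped, and the log2 fold change was -0.39 (SE 0.21, 95% interval -0.86 to 0.08, adjusted p = 0.31).

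Levels can be compared between the 10 genes only per length, and here they were divided by the length of each gene's longest principal transcript in kilobases (GENCODE M21). In Con-Veh, Ghr led with 1399 ± 166 normalised read counts per kb (SD, n = 4), followed by Prlr with 495 ± 53.9, and the ranges of both were clear of their neighbours. Trim24 (266), Stat5b (231), Socs2 (190.4) and Bcl6 (184) came next and each overlapped with its neighbour in this order. After a gap, Stat5a (90.6), Cux2 (82.4), Cish (68.3) and Jak2 (46.7) overlapped in the same way. In Con-DHT, Ghr again led with 1384 ± 337 per kb, and Bcl6 was second with 356 ± 113. Its range overlapped with that of Socs2 (222), and the chain of overlapping ranges went on through Prlr (220.2), Trim24 (210.2) and Stat5b (196). Stat5a (82.0) and Jak2 (45.4) were each clear of the gene above. The range of Jak2 overlapped with that of Cish (25.97), and the range of Cish with that of Cux2 (23.6), which was last. Divided by all annotated exon bases instead, Socs2 would fall to 44.4 per kb in Con-Veh, because its annotated exons are longer than its principal transcript. In Con-DHT, Bcl6 would then be at 187 per kb and Stat5b at 184, so much of the order below Ghr depends on the length used.

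The sex-biased genes that this pathway sets in the liver were counted beside the 10 genes. Many of them are named by the study for these libraries, so their direction is not independent evidence. Of 14 female-biased genes tested, 13 were lower in Con-DHT and none was higher, with a median log2 fold change of -5.53, and of 17 male-biased genes 16 were higher and none lower, with a median of 4.01. Among the largest changes were those of Cyp2b13, a female-specific cytochrome P450 (-7.07), in the first list and of Mup7, a major urinary protein (8.43), and Cyp4a12a, a male-specific fatty acid hydroxylase (7.45), in the second. The order of the Con-DHT livers by the male-biased genes was not their order by Bcl6 or Cux2. The mean log2(value + 1) of these genes was 11.1, 10.0, 9.05 and 11.2 in Con-DHT 1 to 4, and 15 of the 17 were lowest in Con-DHT 3. Con-DHT 1 and 4 were the highest of the 4 by this mean and lay at opposite ends of both the Bcl6 and the Cux2 order. The mean of the female-biased genes was 5.42, 4.52, 4.59 and 4.06, which is the Bcl6 order but for libraries 2 and 3, and these are close.

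**Figure D4:**
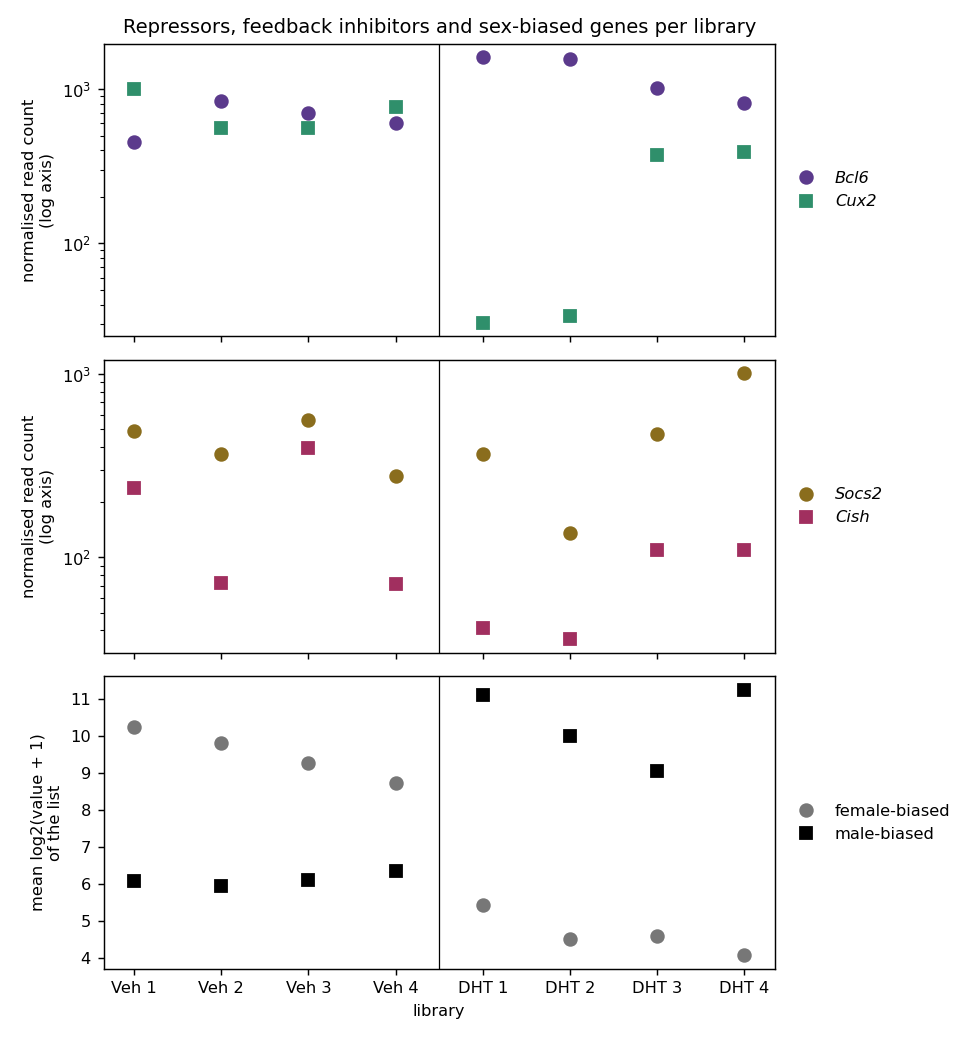
Normalised read counts of Bcl6 and Cux2 (top, log axis) and of Socs2 and Cish (middle, log axis), and the mean log2(value + 1) of the female-biased and male-biased genes (bottom), in each of the 8 libraries (x axis). Con-DHT 1 and 4 have the highest male-biased means (11.1 and 11.2) while their Cux2 values are 30.4 and 392.

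The pathway has many more genes than these 10, and their share of calls in either direction was near that of all genes. Of 65 genes listed by role, 61 were in the table and tested, and Gh, Prl, Stat4 and Socs1 were not among its rows. Of the 61, 4 were lower in Con-DHT and 0 were higher. Of all tested genes 2.61% were called lower and 4.6% higher, or 7.21% in either direction. Of the 61, 12 reached an unadjusted p of 0.05 or less, as did 23.2% of all tested genes. The median log2 fold change was -0.020. With edgeR and DESeq2 on recovered reads 4 and 5 were lower and again 0 higher, but without Con-Veh 3 limma called 2 higher and 2 lower. On all 8 libraries edgeR and DESeq2 called 7.15% and 11.0% of all tested genes.

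Stat2, which carries interferon signals, was 1553, 1463, 1174 and 1579 in Con-Veh and 1005, 899, 1048 and 1106 in Con-DHT, with all Con-DHT values below all Con-Veh values and a log2 fold change of -0.50 (adjusted p = 0.019). Sirpa, a membrane protein that JAK2 phosphorylates and that macrophages express strongly, fell by 0.72 on the log2 scale (adjusted p = 0.030). The liver transcription factor Foxa2 fell by 0.54 (adjusted p = 0.033), without overlap between the groups. These calls are not firm, since limma called 0 of the 61 genes without Con-Veh 2 and also without Con-DHT 2, with 8 and 12 at an unadjusted p of 0.05 or less.

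For 7 of the roles where no gene passed, the 1 with the smallest unadjusted p is given. Among the other JAK kinases this was Tyk2 (log2 fold change -0.16), among the other SOCS genes Socs7 (0.23), among the phosphatases Ptpn1 (-0.29), which removes phosphate from JAK2, and among the PIAS genes Pias2 (0.08). Among the receptor turnover genes it was Cul5 (0.21), the scaffold of the ubiquitin ligase that SOCS proteins join. The target gene Pim1, a kinase induced by STAT5, had 0.69 and the related receptor gene Ifngr1 had -0.22 without overlap between the groups. Adjusted p-values of these 7 genes ran from 0.13 to 0.57. Igf1, the main endocrine product of the pathway, and Igfals, which carries IGF1 in blood, were chosen after their values were seen and had log2 fold changes of 0.02 (adjusted p = 0.93) and -0.16 (adjusted p = 0.40).

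**Figure D5:**
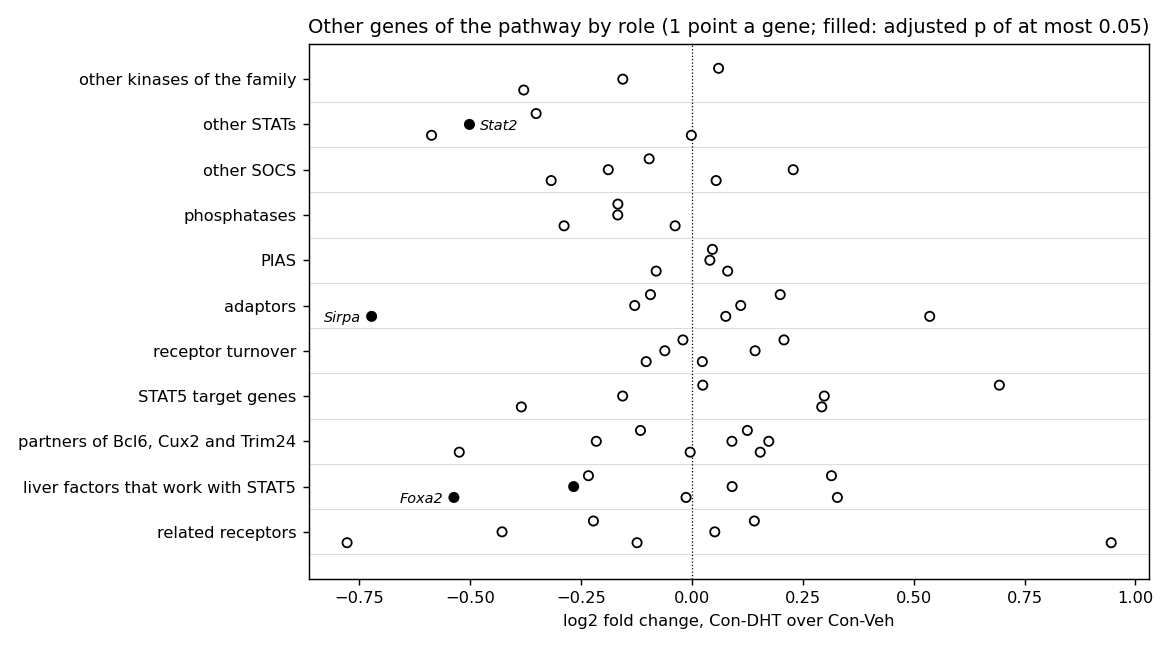
Log2 fold change of Con-DHT over Con-Veh (x axis) for 61 other genes of the pathway, 1 point a gene, in rows by role (y axis), filled where the adjusted p was at most 0.05. The 4 filled points, which include Stat2 (-0.50), Sirpa (-0.72) and Foxa2 (-0.54), all lie left of 0.

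Summed markers of some other liver cells parted between the groups. The summed value of 7 Kupffer cell and macrophage markers was between 6317 and 7843 in Con-Veh and between 4289.9 and 5904 in Con-DHT, and 3 of the 7 were called lower (Clec4f, Vsig4 and Cd5l). The sum of 6 endothelial markers was between 3259 and 3620 in Con-Veh and between 2399 and 2778 in Con-DHT. Stab2, the most abundant of the 6, made up the largest part of it. Here 2 of 6 were called lower (Stab2 and Lyve1). Kdr was flat (log2 fold change 0.00026), and Clec4g (-0.35) and Pecam1 (-0.18) overlapped and were not called. Oit3 (-0.40) was not called either, though its groups did not overlap. Both shares of called markers are to be read beside the 2.61% of all tested genes called lower. Sums of the hepatocyte, stellate cell, cholangiocyte, dividing cell and B cell markers overlapped between the groups, 0 of 5 neutrophil markers were in the table, and of 5 T cell markers only Cd4 was, at 9.89 to 13.9 in Con-Veh and 25.2 to 34.8 in Con-DHT, while Cd3e, Cd3d, Trac and Cd8a were not among its rows. The part of these cells in the values of Sirpa, Stat2 or any of the 10 genes was not tested.

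For the 3 genes that were called or did not overlap, the genes with the most similar pattern were sought among 10725 genes with a mean of at least 50, by Pearson's r over the 8 libraries after each group's mean of log2(value + 1) had been taken away. Libraries share their scaling and their mouse, so r is a description. Prlr was nearest to Acot13, Mbl2 and Cmtm3 (each r = 0.98), Bcl6 to Colec12, Pigb and Mtus1 (each 0.99), and Cux2 to Cbr1 and Cfd (both 0.98). Mbl2, a mannose-binding lectin made by hepatocytes, was also lower in Con-DHT (log2 fold change -0.77, adjusted p = 0.0061), and the other 7 named here were not called. Cfd, the complement factor adipsin, had the same split in Con-DHT as Cux2, with 324 and 307 in libraries 1 and 2 and 1713 and 2033 in libraries 3 and 4, but its Con-Veh values of 336 to 502 lay between the pairs.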

How the data were processed

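Liver RNA of 4 Con-Veh and 4 Con-DHT mice was measured, 1 library to a mouse, and all 8 were used with the groups and replicate numbers of the labels. The authors trimmed the reads with Trimmomatic, aligned them with STAR, used featureCounts (Subread) to count uniquely mapped reads over exons and compared the groups with DESeq2, and the submitters' processing notes name GRCm39. The deposited values are a normalised signal, read counts divided by a size factor per library, for 14317 mouse genes and 54 spike-in transcripts added before library preparation. The value of 3 reads, between 2.61 and 3.30, was taken as the floor of counting, and this limit covers counting error only.

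Values of a deposited column are multiples of the worth of 1 read, and 100% of them gave whole reads within 0.001. The main test was limma 3.58.1 (R 4.3.3, lmFit and eBayes with a trend) on log2(value + 1) for the 14312 genes with a mean of at least 10. Adjustment was by Benjamini-Hochberg, and genes were called at 0.05. Adding 1 before the logarithm understates changes of weakly expressed genes. edgeR 4.0.16 (quasi-likelihood test) and DESeq2 1.42.0 (Wald test) were run on the recovered reads as alternatives and called 1024 and 1569 genes. All 3 tests were tried on simulated data. Ratios were compared by exact two-sided permutation tests, adjusted over 4 ratios.

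The 10 genes and all gene lists were chosen with earlier results of these data known. Text names all 10 genes, the other pathway genes that were called or, in a role without one, the 1 with the smallest unadjusted p, the 2 largest called changes of each sex-biased list, and the 3 genes most similar to each of the 10 that was called or did not overlap between groups. Some genes that this rule gives are not reported here. Of the 14317 genes 14287 had a symbol, taken from a table of gene names and identifiers. Transcript lengths came from GENCODE M21 and start windows from RefSeq, both on GRCm38, so no other coordinates are given. Libraries of a group differed by far more than sampling noise, with a chi-square per degree of freedom of at least 19.2 in 12 pairs. Nothing in the sources used here gives batches. Alternatives were other pseudocounts and filters, other scalings, limma without the trend or with array weights, a replicate block, the count tests and leaving out each library.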

Additional observations from a re-analysis of the deposited data

Results flagged for a closer look

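Jak2 was checked among 28 sets of 4 libraries, which included the 10 genes in each group, and was the 1 set with a library far from the rest. In Con-DHT the gap between its lowest library, Con-DHT 4 at 165, and the next was 0.834 of the whole range of the group, above Dixon's critical value for 4 values. Chance alone marks about 1 in 20 such sets. Without Con-DHT 4 the log2 fold change of Jak2 was 0.087 in place of -0.06, and it was not called either way.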

How the results depend on the processing

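Prlr was called under all 13 alternatives and all 8 fits that left out a library, with log2 fold changes between -1.40 and -1.01. The count of all genes called, 1032 (658 higher, 374 lower), became 648 with a mean of at least 50, where fewer genes are tested, 1569 with DESeq2 and 636 (561 higher, 75 lower) with scaling by the spike-ins, and leaving out a library gave 638 to 897. An equal library total outside the Mup genes gave 1289 (1081 higher, 208 lower). Of the 10 genes, 1 in place of 2 was called with a mean of at least 50, without the trend and with the replicate block, since Bcl6 was lost (adjusted p = 0.058, 0.093 and 0.055, limma), and leaving out a library gave 1 to 3. Bcl6 was lost without Con-Veh 1, 3 or 4 and without Con-DHT 1, 2 or 3. Cux2 was called with scaling by the spike-ins (-2.45, adjusted p = 2.3e-13, limma), where limma's estimated prior degrees of freedom were infinite, so that the gene's own spread had no weight, beside 4.20 in the deposited scaling, and without Con-DHT 3 (-3.22) or Con-DHT 4 (-3.24), while the other 6 left-out fits gave adjusted p-values of 0.11 to 0.17. Of the 61 pathway genes, 1 was called with that total (Stat2), 1 with the spike-ins (Egfr, higher), 1 without the trend (Stat2), and 0 to 4 when a library was left out, with at most 1 without Con-Veh 1, 2 or 4 or Con-DHT 1, 2 or 4, and 2 without Con-DHT 3. Without Con-Veh 3, 2 of the 4 called were higher.

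Values near 0 changed sign. Ghr was 0.057 with the total outside the Mup genes, 0.16 with the spike-ins and -0.14 to 0.12 when a library was left out, Jak2 was 0.037, 0.14 and -0.13 to 0.087, and Stat5a was 0.066 with the spike-ins. Socs2 was 0.037 and 0.14 under these scalings, 0.23 with edgeR, 0.22 with DESeq2 and -0.51 to 0.45 when a library was left out. Scaling by the spike-ins moved the median of all genes from -0.0081 to 0.19, above each of these 4 genes. The same scaling moved Ghr from -0.04 to 0.16, Jak2 and Socs2 from -0.06 to 0.14, and Stat5a from -0.13 to 0.066. The cause of the changes of sign was not tested.

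Deviations of same-numbered libraries from their group means correlated at -0.19, -0.01, -0.02 and -0.08. These values gave no sign that replicate numbers pair the mice, but they cannot exclude a shared batch. The replicate block gave 700 called genes, 1 of the 10 genes and 3 of the 61 pathway genes, and with it the ratio of Bcl6 to Cux2 (3.57) and that of Prlr to Ghr (-1.18) had an exact permutation p of 0.125, the smallest that 4 pairs allow. Leaving out a library gave 2.82 to 4.36 for Bcl6 over Cux2 and -1.39 to -0.87 for Prlr over Ghr, with exact permutation p-values from 0.029 to 0.11, and 0.81 to 1.41 for Socs2 over Cish. Stat5a over Stat5b, 0.11, was -0.0035 to 0.22, negative only without Con-Veh 3. Cish, with as few as 37 reads, and the low Cux2 pair, with 31 and 35 reads, are the values that depth limits most.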
